A study of Mus musculus with 38 samples.

Results

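The 9 genes S100a8, S100a9, Csf3r, Cxcr2, Retnlg, G0s2, Mmp8, Il1r2 and Trem1 are used as markers of neutrophils, and they were taken by name from each of 4 count tables, which hold 57126 genes (primary tumours and the miRNA experiment) or 55487 genes (brain and exosome culture). All 9 were found in every table. The series is about adipocytes, insulin resistant or not, whose exosomes (small vesicles that cells release) reach triple-negative breast cancer cells. Its 38 libraries, in 10 groups, are labelled as RNA of the mouse mammary adenocarcinoma line 4T1 or of tumours and colonies that grew from it. Tumour and brain libraries also held markers of other cell types, as given below.

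The primary tumours, which the genes are mainly used for here, were labelled as control (4 libraries, no treatment) or as the IR group (5 libraries), where IR stands for insulin resistant. The brain libraries came from a clonogenic assay, in which tumour cells of a tissue are grown out as colonies, and were labelled control, IS (insulin sensitive) or IR, with 5 libraries each. In culture, 4T1 cells were untreated, given exosomes of IS adipocytes or given exosomes of IR adipocytes for 72 h, with 3 libraries each, and the adipocytes were differentiated 3T3-L1 cells. In the miRNA experiment 2 libraries were titled as a scrambled miRNA control and 3 as miR-145a-3p, but the library names in the labels name the opposite treatment, so no direction is drawn from these 5. The labels name no transgene, mouse strain, age, sex or host treatment, and do not say what the IR group of tumours received. They call the samples biological replicates without naming animals or cultures, so p-values measure the spread between these samples, which may be partly technical.

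Neutrophils are short-lived granulocytes made in the bone marrow. The growth factor G-CSF, made from Csf3, acts on its receptor Csf3r to drive their production, and CXC chemokines acting on Cxcr2 draw them from the blood into tissue. 4T1 tumours are known for releasing G-CSF and for the many granulocytes that their hosts carry. Several of these genes are also read in monocytes and macrophages, and a bulk library cannot separate the sources.

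S100a8 and S100a9 encode the 2 subunits of calprotectin, the main cytosolic protein of neutrophils, and they are neighbours on chromosome 3 in opposite orientation. Their promoters are shown because both genes ranked the tumours almost alike, whereas outside the tumours S100a8 was counted and S100a9 was not. Each line gives the 250 bases before the start, 5′ to 3′ on the strand of the gene, from RefSeq on GRCm38.p6, at chr3:90668821-90669070 on the plus strand for S100a8 and chr3:90695722-90695971 on the minus strand for S100a9. Capitals mark matches to GAGGAAGT (a PU.1 site) or its core GGAAGT and to TTNNGNAAT (a C/EBP site), letters read on both strands. PU.1 and C/EBP factors are transcription factors of myeloid cells.

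S100a8: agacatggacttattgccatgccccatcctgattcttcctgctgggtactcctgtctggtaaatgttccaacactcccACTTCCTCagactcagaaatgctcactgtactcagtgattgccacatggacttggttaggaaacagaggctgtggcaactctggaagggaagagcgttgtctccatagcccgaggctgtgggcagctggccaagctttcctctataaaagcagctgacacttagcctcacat
S100a9: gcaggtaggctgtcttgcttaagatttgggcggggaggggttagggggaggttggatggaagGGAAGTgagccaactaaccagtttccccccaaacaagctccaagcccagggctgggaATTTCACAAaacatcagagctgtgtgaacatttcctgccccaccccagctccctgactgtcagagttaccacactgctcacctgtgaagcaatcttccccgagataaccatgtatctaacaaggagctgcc

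The promoter of S100a8 held a match to GAGGAAGT on the opposite strand, with its first base at -172, and the core lies within it. That of S100a9 held the core at -188 and a match to TTNNGNAAT on the opposite strand at -131. Of the 9 genes, all matched to the RefSeq table and searched from 250 bases before to 50 after the start, 2 held GAGGAAGT (S100a8 and Mmp8), 6 held the core (S100a8, S100a9, Cxcr2, Mmp8, Il1r2 and Trem1) and 1 held TTNNGNAAT (S100a9). Of all 32851 promoters in the table, 3.2%, 23.8% and 11.5% held these 3 motifs, in that order. Csf3r, Retnlg and G0s2 held none of them. Besides the neighbours on chromosome 3, Cxcr2, G0s2 and Il1r2 lie on chromosome 1, far from each other.

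Library totals were 17392887 to 21909370 counts in the tumours, 8790616 to 13272583 in brain, 8455412 to 12785398 in exosome culture and 24972592 to 32637552 in the miRNA experiment. Levels are in CPM, which is counts relative to the counts on tested genes after scaling between libraries, and 1 count was worth 0.0466 to 0.0596 CPM in a tumour. A gene was tested where 3 or more libraries of its table had 3 CPM. Of the 9 genes, 8 passed in the tumours (all but Mmp8), 2 in brain (S100a8 and Csf3r), and 0 in culture and in the miRNA experiment. The tables were quantified separately, so no test was run across them. The heat map of group means shows that every gene was counted in both tumour groups.

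**Figure D1:**
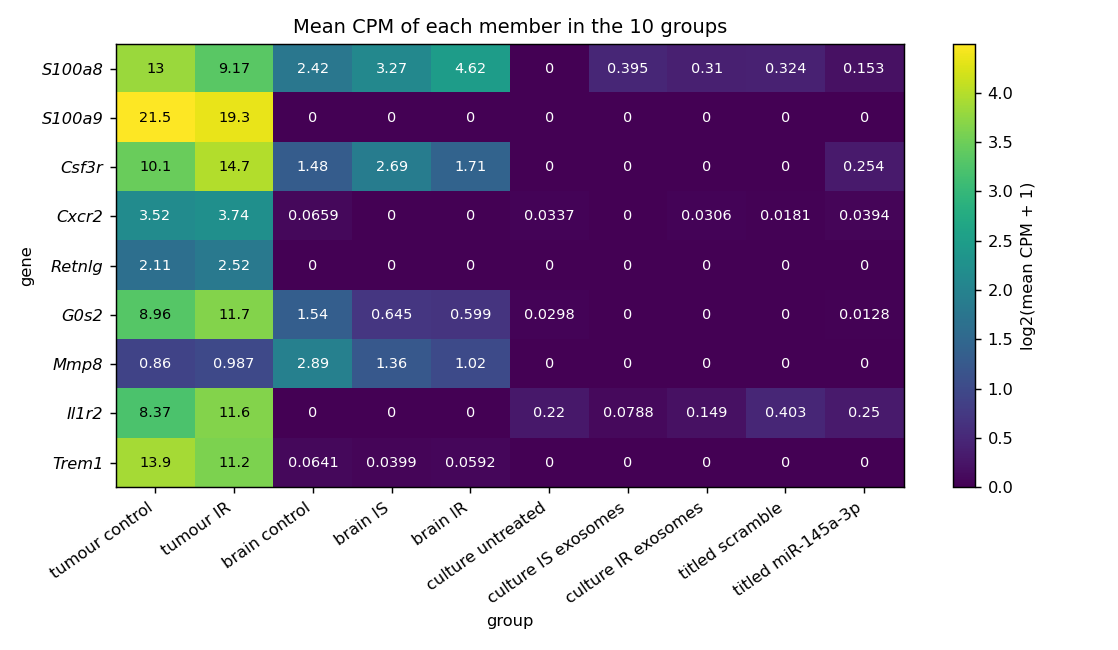
Mean CPM of each of the 9 genes (rows) in the 10 groups (columns); the number in a cell is the mean and the colour is log2(mean CPM + 1). Colours compare groups of 1 table, since tables were quantified separately and CPM is not per gene length. In the tumours all 9 genes have a mean of 0.86 CPM or more, and elsewhere the highest mean is 4.62 CPM, of S100a8 in IR brain libraries.

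In the tumours Epcam, an epithelial adhesion protein that marks the labelled mammary carcinoma cells, was at 311 to 741 CPM. Some libraries stood apart in tissue make-up. Lymphocyte markers summed to 461 CPM in control 2, 547 CPM in IR 2 and 130 CPM in IR 5, against 10.8 to 27.7 CPM in the other 6 libraries. Ptprc, the pan-leukocyte antigen CD45, was at 229 CPM in control 2 and 287 CPM in IR 2, and at 53.5 to 86.5 CPM elsewhere. Keratinocyte markers summed to 468 CPM in control 1 and at most 17.2 CPM elsewhere, and skeletal muscle markers to 10573 CPM in IR 4 and 1566 CPM in IR 5, against at most 210 CPM elsewhere. Other marker lists moved with the groups, though none of their genes was called. At an unadjusted p under 0.05 (edgeR), 4.86% of all tested genes were higher in IR tumours and 2.79% lower. Fibroblast markers were higher in IR tumours in 5 of 5 tested genes, 3 of them at an unadjusted p under 0.05, with sums of 6006 to 11956 CPM against 3438 to 6478 CPM in controls. Red cell markers were higher in 4 of 4 tested genes, all 4 at that p, with sums of 74.1 to 728 against 69.6 to 196 CPM. Mast cell and basophil markers were lower in 4 of 4 tested genes, 3 of them at that p. Their sums did not overlap, with 25.3 to 46.0 CPM in IR tumours and 49.1 to 138 CPM in controls. Of these 4 genes 1 did not overlap, as for 1.26% of all tested genes in this direction. Skeletal muscle markers were higher in 5 of 5 tested genes, 2 of them at that p. Keratinocyte markers were lower in 2 of 2 tested genes, with 2 at that p.

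Ly6g, Mpo, Elane, Ngp and Camp, of the wider lists of neutrophil genes given below, were low in most tumours. Ly6g, the surface antigen by which mouse neutrophils are sorted, was at 0 counts in control 1, control 3 and IR 4 and at 1.24 CPM at most, in control 2. Mpo, myeloperoxidase of the primary granules, was at 23.9 CPM in control 2, at 2.92 CPM in IR 2, at 0.25 to 0.83 CPM in control 4, IR 1 and IR 5, and at 0 counts in control 1, control 3, IR 3 and IR 4. Elane, neutrophil elastase, was at 7.27 CPM in control 2 and at most 0.757 CPM elsewhere, and Ngp and Camp, proteins of the secondary granules, were at 24.8 and 4.11 CPM there and at most 3.17 and 0.54 CPM elsewhere. Macrophage and monocyte markers summed to 2073 to 2556 CPM in controls and 1830 to 2497 CPM in IR tumours, among them Csf1r, the receptor of the macrophage growth factor, at 178 to 325 CPM and Adgre1 at 33.9 to 58.4 CPM. Of 72 further genes of neutrophil biology found, 50 passed the filter in the tumours. Among them, Clec4d and Fpr2 are named after their values were seen. Clec4d was at 2.18 to 10.1 CPM in controls and 3.40 to 9.52 CPM in IR tumours. Fpr2 was at 1.80 to 7.56 and 3.13 to 5.24 CPM. Fpr1, below the filter and named likewise, was at 1.05 to 4.63 CPM in controls and 0.414 to 1.70 CPM in IR tumours. The name neutrophil genes is taken from the list, and the number of neutrophils in the tumours was not tested. The share of the counts of the 9 genes that came from neutrophils was not tested. The maturity of the cells that gave the counts of Mpo, Elane, Ngp and Camp was not tested either.

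In the comparison of IR with control tumours, which asks whether these genes differ with the IR condition, none of the 8 tested genes was called at an adjusted p of 0.05 (edgeR quasi-likelihood test, adjusted over 12962 genes). The test called 0% of all tested genes, so this count says nothing particular to the 9. At an unadjusted p under 0.05 it listed 991 genes (7.65%), 1 of them among the 8 (Il1r2). DESeq2 called 124 genes (0.957%) and a fit with the replicate number as a block called 1, and none of the 8 was among them. For all 9 genes the libraries of both groups overlapped, where 2.41% of all tested genes had groups that did not. Fewer cells of a type and less RNA per cell cannot be told apart in such bulk libraries.

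**Figure D2:**
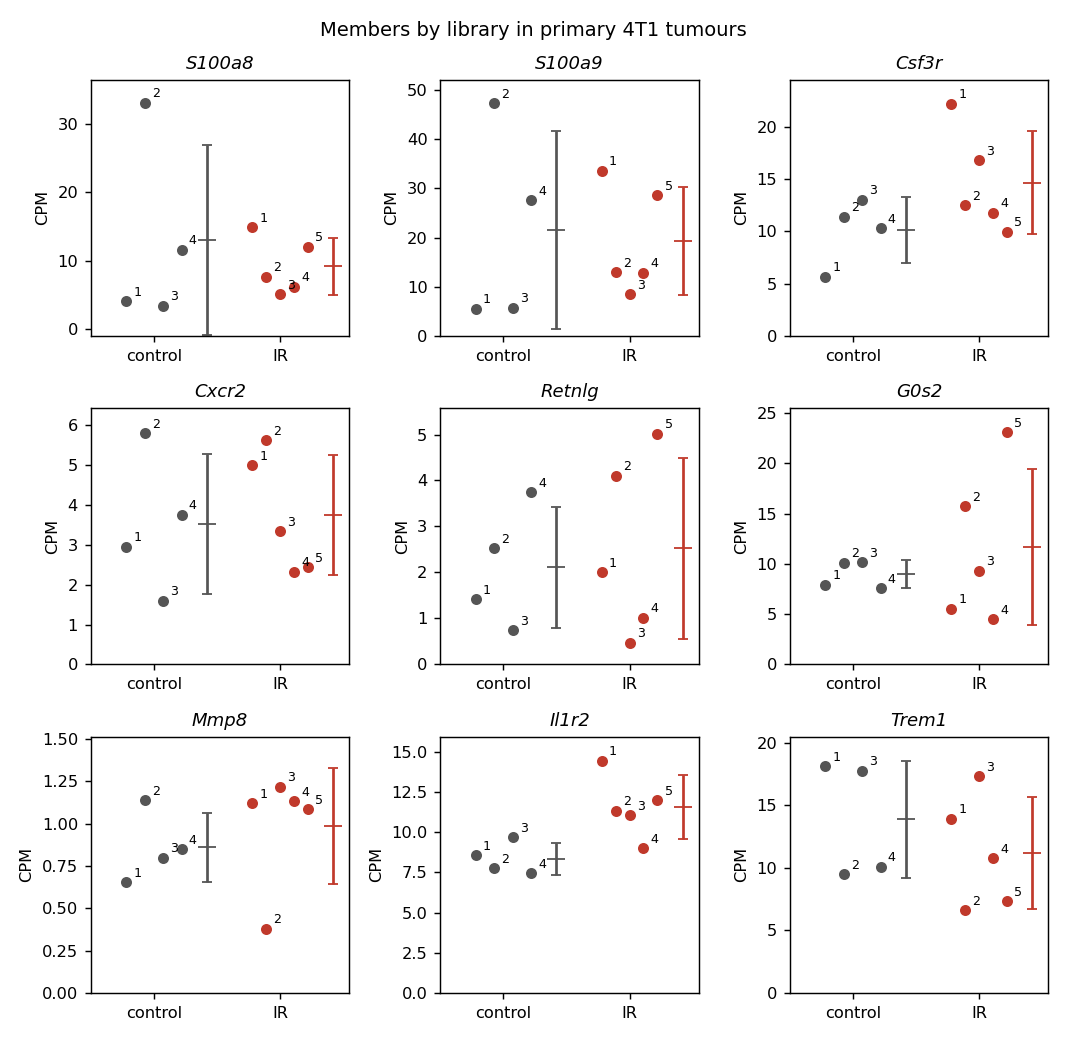
CPM of each gene in the 4 control (grey) and 5 IR (red) tumours, 1 point per library with its replicate number; the horizontal mark and bar are the mean and SD of the group, and each panel has its own scale. Control 2 holds the highest S100a8, S100a9 and Cxcr2, at 33.1, 47.3 and 5.79 CPM, and the groups overlap in every panel.

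S100a8 was at 4.04, 33.1, 3.41 and 11.6 CPM in controls 1 to 4 and at 14.9, 7.62, 5.09, 6.20 and 12.1 CPM in IR tumours 1 to 5. Control 2 was far above the other libraries, and the lowest libraries were controls too. The means were 13.0 ± 13.9 CPM in controls (SD, n = 4) and 9.17 ± 4.15 CPM in IR tumours (n = 5), a log2 fold change of -0.51 ± 0.633 (SE, adjusted p = 0.949). Without control 2 it was 0.53 (adjusted p = 0.863), so leaving out 1 library turned the sign. Control 4 bears the number 5 in its library name, and with a block by those numbers the value was 0.11 (adjusted p = 0.983). Without control 2 and IR 2, the 2 libraries high in lymphocyte markers, it was 0.59 (adjusted p = 0.859).

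S100a9 was at 5.57, 47.3, 5.75 and 27.5 CPM in the controls and at 33.6, 13.0, 8.53, 12.9 and 28.6 CPM in the IR tumours. The same libraries were high and low as for S100a8, and ranks from 1 to 9 were equal but for controls 1 and 3, which changed places at the low end. The log2 fold change was -0.16 ± 0.656 (adjusted p = 0.998), 0.58 without control 2 (adjusted p = 0.882), 0.03 without IR 3 (adjusted p = 1.00) and 0.31 with the block by library names (adjusted p = 0.954). Counts of S100a9 per count of S100a8 were 1.38, 1.43, 1.69 and 2.38 in controls 1 to 4 and 2.26, 1.70, 1.68, 2.08 and 2.37 in IR tumours 1 to 5. The ratio stayed within a narrow band while the level of S100a8 differed 9.71-fold among the controls. In control 2, where both were highest, Elane, Mpo, Ngp, Camp and Ly6g were highest too, with the values above. IR 1, IR 5 and control 4 came next in S100a9, with Mpo at 0.653, 0.828 and 0.25 CPM there and lymphocyte markers at 27.7, 130 and 24.8 CPM. The part of granule genes and other cell types in the S100a8 and S100a9 levels was not tested.

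Among the receptors, Csf3r, through which G-CSF acts, was at 5.68, 11.4, 13.0 and 10.3 CPM in controls and at 22.2, 12.5, 16.8, 11.8 and 9.99 CPM in IR tumours. Control 1 was lowest and IR 1 highest, with the other 7 libraries between 9.99 and 16.8 CPM. The log2 fold change was 0.54 ± 0.298 (edgeR adjusted p = 0.757), with an approximate 95% interval of -0.05 to 1.1. Such intervals are the SE times a normal quantile, which makes them narrow for so few libraries. It was positive without each library in turn, from 0.34 without IR 1 to 0.68 without control 3. Csf3, its ligand, was at 28.1 to 78.2 CPM in controls and 23.7 to 46.4 CPM in IR tumours (log2 -0.31 ± 0.329, adjusted p = 0.926). Csf3 was highest in control 4, which ranked the seventh of 9 in Csf3r.

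Il1r2, a decoy receptor that binds interleukin 1 without signalling, was at 8.57, 7.77, 9.68 and 7.45 CPM in controls and at 14.5, 11.3, 11.1, 9.0 and 12 CPM in IR tumours. Of the IR tumours, IR 4 lay below control 3 and the other 4 lay above every control. The means were 8.37 ± 0.997 and 11.6 ± 1.96 CPM, a log2 fold change of 0.47 ± 0.186 with an approximate 95% interval of 0.11 to 0.83. Its p of 0.0297 did not pass adjustment over all genes (adjusted p = 0.613). The part of the fibroblast, mast cell and red cell markers that moved with the groups was not tested. Il1r2 had the smallest SE of the 8 tested genes and kept its sign without each library (0.38 to 0.55). Il1b, a ligand it captures, is named here after its values were seen. It was at 30.8 to 46.9 CPM in controls and 54.0 to 89.4 CPM in IR tumours and did not overlap (log2 0.81 ± 0.175, adjusted p = 0.369). In the same direction, 1.15% of all tested genes did not overlap. DESeq2 gave Il1b an adjusted p of 0.00627, where it called 0.957% of all tested genes.

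Cxcr2, the receptor for the neutrophil-attracting chemokines, was low, at 2.95, 5.79, 1.6 and 3.75 CPM in controls and 4.99, 5.62, 3.34, 2.32 and 2.43 CPM in IR tumours. The groups covered the same range (log2 0.09 ± 0.41, adjusted p = 0.998), and the sign turned without control 3 (-0.15), IR 1 (-0.04) or IR 2 (-0.11). Its ligand genes Cxcl1 and Cxcl2 were at 4.15 to 17.7 and 0.94 to 2.46 CPM in controls, and at 3.30 to 17.9 and 0.54 to 6.53 CPM in IR tumours. Cxcl5 was at 0.437 to 4.10 CPM over all 9 libraries, below the filter. None of these ligands was called (adjusted p = 0.97 for Cxcl1 and 0.763 for Cxcl2).

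Trem1, a receptor that amplifies inflammatory signals in neutrophils and monocytes, was at 18.1, 9.50, 17.8 and 10.1 CPM in controls and 13.9, 6.59, 17.3, 10.8 and 7.35 CPM in IR tumours. It was highest in controls 1 and 3, where S100a8 and S100a9 were lowest, and lowest in IR 2 and IR 5. The log2 fold change was -0.31 ± 0.331 (adjusted p = 0.929) and stayed negative without each library, from -0.51 without IR 3 to -0.15 without control 1.

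Retnlg, a secreted resistin-like protein of mature neutrophils, was at 1.42, 2.52, 0.745 and 3.75 CPM in controls and 2.01, 4.11, 0.477, 1.01 and 5.02 CPM in IR tumours. Its libraries ran nearly opposite to those of Trem1: IR 5 and IR 2, ranked 1 and 2 in Retnlg, were ranked 8 and 9 in Trem1. The IR libraries differed 10.5-fold among themselves, and the log2 fold change of 0.26 ± 0.675 (adjusted p = 0.989) turned to -0.023 without control 3 and to -0.26 with the replicate number as a block.

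G0s2, an inhibitor of fat breakdown that is also abundant in adipocytes, was at 7.92, 10.1, 10.2 and 7.6 CPM in controls and 5.55, 15.7, 9.33, 4.53 and 23.1 CPM in IR tumours. The controls differed 1.34-fold and the IR libraries 5.11-fold, with both the lowest and the highest library in the IR group. The log2 fold change was 0.38 ± 0.445 (adjusted p = 0.94), -0.024 without IR 5 and -0.18 with the replicate number as a block. Adipocyte markers summed to 162 to 402 CPM in controls and 21.5 to 688 CPM in IR tumours, and their part in G0s2 was not tested.

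Mmp8, the neutrophil collagenase of the secondary granules, was below the filter with 7 to 24 counts per tumour. It was at 0.655, 1.14, 0.798 and 0.85 CPM in controls and 1.1, 0.378, 1.22, 1.13 and 1.09 CPM in IR tumours. IR 2 was lowest and the other 8 libraries lay within 0.655 to 1.22 CPM, controls and IR tumours alike. Without the filter on low counts the log2 fold change was 0.22 ± 0.513 (edgeR, adjusted p = 0.948). Control 2, the library with the most Elane, Mpo, Ngp and Camp, ranked only the second in Mmp8.

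Across the 8 tested genes the log2 fold changes ran from -0.51 to 0.54, with 5 above 0 and 3 below, and their median of 0.17 stood beside a median of 0.01 over all 12962 tested genes.

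**Figure D3:**
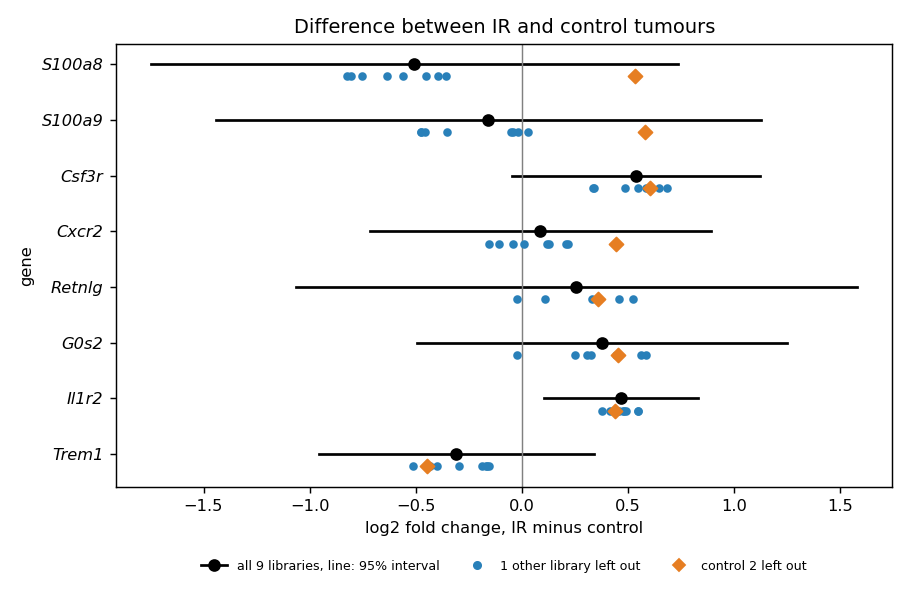
Log2 fold change of IR over control tumours for the 8 tested genes, with bars of the approximate 95% interval (SE times a normal quantile). Blue points are the values with 1 other library left out and the orange diamond is the value without control 2. The bars of all genes but Il1r2 (0.11 to 0.83) include 0, and S100a8 and S100a9 change sign without control 2, to 0.53 and 0.58.

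The 9 genes did not mark the same tumours. Of the 8 tested genes, control 2 had the highest level of 3 (S100a8, S100a9 and Cxcr2), IR 1 of 2 (Csf3r and Il1r2), IR 5 of 2 (Retnlg and G0s2) and control 1 of 1 (Trem1). The lowest level fell in control 1 for 2 genes, control 3 for 2 and in control 4, IR 2, IR 3 and IR 4 for 1 each. Summed over the 9 genes the levels were 54.9, 129, 62.9 and 82.9 CPM in controls 1 to 4 and 113, 76.9, 73.2, 59.7 and 102 CPM in IR tumours 1 to 5, with both groups across the same range. Over the 9 libraries Pearson's r between genes was 0.96 for S100a8 with S100a9 (Spearman's rho 0.98) and -0.85 for Retnlg with Trem1 (rho -0.82), the highest and lowest of the 28 pairs. These are descriptions over libraries of both groups that also differ in tissue make-up.

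**Figure D4:**
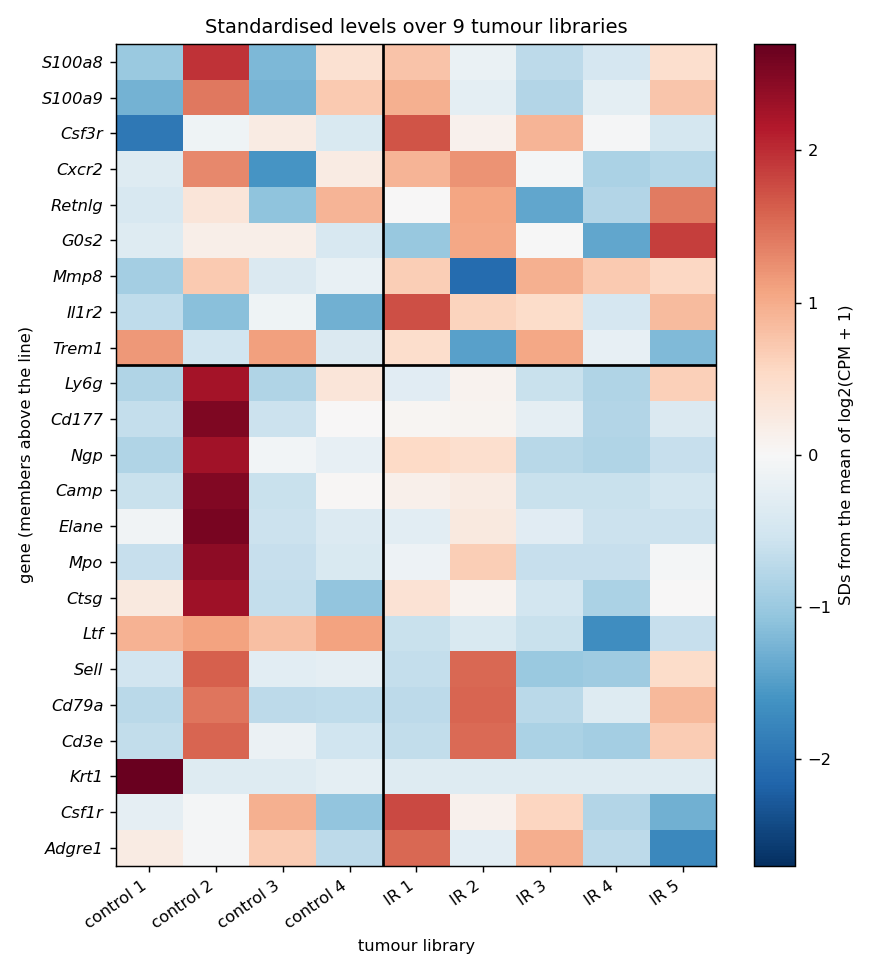
Levels in the 9 tumours (columns) as standard deviations from the mean of each gene's log2(CPM + 1), for the 9 genes above the line and granule, lymphocyte, keratinocyte and macrophage genes below it. Control 2 is high in S100a8, S100a9, Ly6g, Elane, Mpo, Ngp and Camp, whereas Csf3r and Il1r2 are highest in IR 1 and Trem1 in control 1.

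Per length of the exons the order of levels in the controls was S100a9 with 41.3 ± 38.4 CPM per kb (SD, n = 4), S100a8 with 18.8 ± 19.97, G0s2 with 10.3 ± 1.59, Trem1 with 4.63 ± 1.57, Il1r2 with 4.39 ± 0.522, Retnlg with 3.56 ± 2.22, Csf3r with 2.80 ± 0.876, Cxcr2 with 1.16 ± 0.575 and Mmp8 with 0.355 ± 0.0836. Neighbours in this order overlapped between libraries, except G0s2 with Trem1 and Cxcr2 with Mmp8. In the IR tumours S100a9 was again highest with 37.0 CPM per kb and Mmp8 lowest with 0.407, and G0s2 with 13.4 stood beside S100a8 with 13.2.

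The genes most like the 9 were taken as those whose log2(CPM + 1) followed the mean standardised level of the 8 tested genes over the 9 tumours. That mean was highest in IR 1 (0.69), control 2 (0.42) and IR 5 (0.36) and lowest in control 1 (-0.61) and IR 4 (-0.56). Among 10084 candidates of 10 CPM or more the highest correlations were those of Cxcr4 (r = 0.89, rho = 0.82), the receptor that holds neutrophils in the marrow, and Ada (r = 0.89, rho = 0.87), adenosine deaminase. They were followed by Sfmbt1, Sp140, E4f1, Mark2, Osbpl7, Parp6, Runx3 and Polr3c, with r from 0.88 to 0.81. Cxcr4 ran from 20.9 to 50.9 CPM. The best of so many candidates over 9 libraries are a description, and the libraries share the differences in tissue make-up given above.

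Of 73 further genes of neutrophil biology, in 5 lists, 72 were found in the table and 50 were tested in the tumours, and none was called. At an unadjusted p under 0.05, 4.86% of all tested genes were higher in IR tumours and 2.79% lower. Of 16 tested receptors and adhesion molecules, 3 were higher and 0 lower at that p. Of 10 tested granule and secreted proteins, 1 was higher and 2 were lower. Of 15 tested cytosolic and inflammatory genes, 3 were higher and 1 was lower. Of 4 transcription factors and 5 ligands and growth factors, 0 passed that p in either direction. The median log2 fold changes of the 5 lists were 0.00, -0.05, -0.05, -0.11 and 0.31, in the order given.

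Some genes of these lists are named after their values were seen. Ltf, lactoferrin of the secondary granules and of mammary epithelium, was at 18.8, 22.5, 16.1 and 22.5 CPM in controls and at 2.43, 3.19, 2.38, 0 and 2.33 CPM in IR tumours. The groups did not overlap, as for 1.26% of all tested genes in this direction, and the log2 fold change was -3.27 ± 0.695 (edgeR adjusted p = 0.369, DESeq2 adjusted p = 0.000127). Ltf was no higher in control 2 than in control 4, whereas Ngp and Camp, of the same granules, were highest in control 2. Fcgr4, an activating Fc receptor, was at 42.2 ± 10.0 CPM in IR tumours and 19.6 ± 5.01 CPM in controls, and Ccrl2, a chemerin-binding receptor, at 7.55 ± 2.26 and 2.95 ± 0.575 CPM. For both the groups did not overlap, as for 1.15% of all tested genes in this direction. Both had an adjusted p of 0.369 by edgeR, against 0.00255 and 0.00409 by DESeq2, which called 0.957% of all tested genes. Ccrl2 was at 2.45 to 3.76 CPM in controls, so it passed the filter only with IR libraries, and Ltf passed it only with controls. The signs of Ccrl2 and Ltf are thus not independent of the filter. The sums of macrophage markers given above overlapped between the groups. Mrc1 of that list, the mannose receptor, named after its values were seen, did not overlap, at 218 to 328 CPM in controls and 102 to 200 CPM in IR tumours. The part of macrophages, and of the fibroblast, mast cell and red cell markers that moved with the groups, in the differences of Ltf, Fcgr4, Ccrl2 and Il1b was not tested.

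In the brain clonogenic libraries, which ask what cells grown out of brain express, markers of the labelled carcinoma cells were counted at lower levels than in cultured 4T1 cells. Epcam was at 2.00 ± 0.983 CPM in controls, 0.979 ± 0.963 CPM in IS and 0.913 ± 0.475 CPM in IR libraries (SD over 5). Untreated 4T1 cells in culture had 179 ± 12.2 CPM. The 6 tumour and epithelial markers, 4 of which passed the filter in brain, summed to 111 to 143 CPM in controls, 92.1 to 177 CPM in IS and 98.3 to 152 CPM in IR libraries, most of it Krt18, and to 2892 to 2922 CPM in the untreated cells. The tables were quantified separately, so these levels are set side by side without a test. Ly6g, Elane and Mpo had 0 counts in all 15 libraries. S100a9, Retnlg and Il1r2 had 0 counts too, which allows up to 0.0195 CPM over the table (3 counts of the total, counting error only). Cxcr2 had 3 counts in 2 libraries and Trem1 8 counts in 6.

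S100a8 was counted in every brain library without S100a9, in contrast to the tumours, where S100a9 had the more counts in all 9. It was at 2.78, 1.51, 3.62, 2.44 and 1.76 CPM in controls, at 3.42, 5.41, 3.63, 2.23 and 1.66 CPM in IS and at 7.75, 3.75, 1.75, 4.59 and 5.24 CPM in IR libraries, whose columns carry no number that the labels tie to 1 sample. Of the IR libraries 4 lay above every control and 1, at 1.75 CPM, lay among the lowest. The log2 fold change of IR over control was 0.93 ± 0.376 (edgeR adjusted p = 0.122), with adjusted p from 0.0569 to 0.316 over 16 alternatives. It was 0.43 ± 0.38 for IS over control (adjusted p = 0.568) and 0.50 ± 0.363 for IR over IS (adjusted p = 0.504), so S100a8 was called in none of these comparisons, which share groups.

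**Figure D5:**
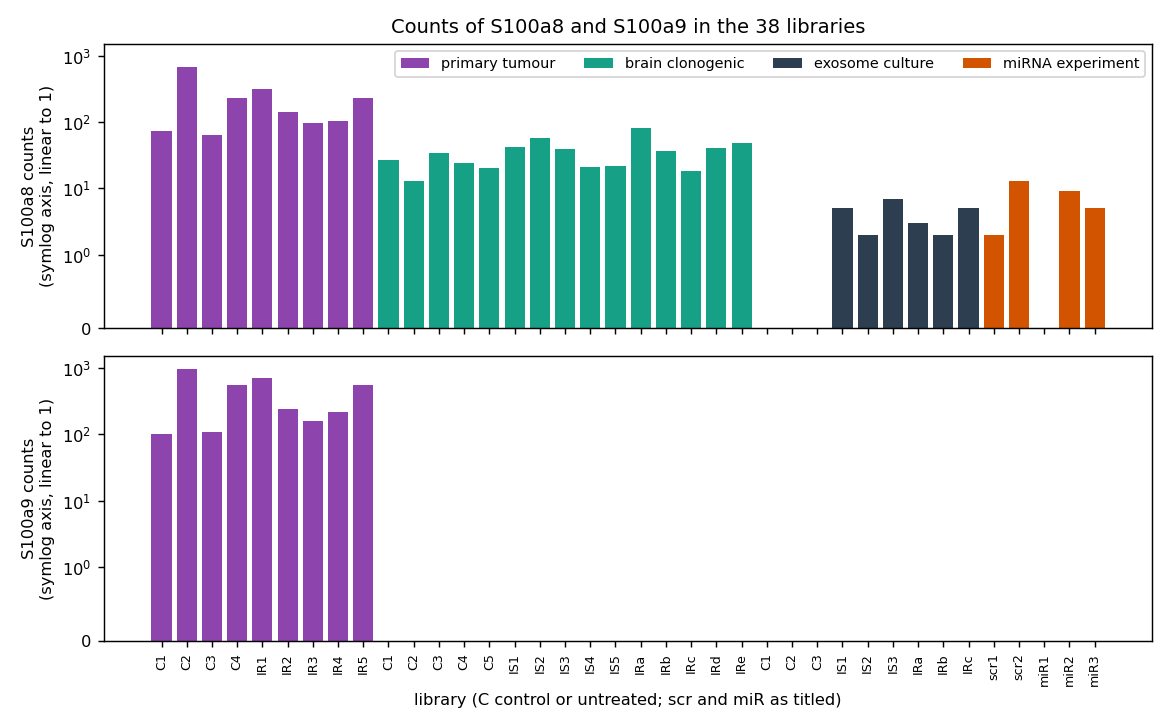
Counts of S100a8 and S100a9 (bars) in each of the 38 libraries, on an axis that is linear near 0 and logarithmic above. In the 9 tumours S100a9 has more counts than S100a8, and in the other 29 libraries S100a9 has 0 counts while S100a8 reaches 82.

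Csf3r was at 1.44, 0.931, 1.49, 1.32 and 2.20 CPM in brain controls, at 1.71, 1.59, 2.14, 4.47 and 3.54 CPM in IS and at 0.851, 2.13, 0.873, 1.49 and 3.21 CPM in IR libraries. The groups overlapped, with IS 4 and IS 5 highest. Csf3r passed the filter only through IS 4, IS 5 and the highest IR library, at 4.38, 3.54 and 3.23 CPM of the total count. No control was above 2.17 CPM on that scale, so its sign against control is not independent of the filter. IS over control gave a log2 fold change of 0.84 ± 0.39 (edgeR adjusted p = 0.222), IR over control 0.18 (adjusted p = 0.826) and IR over IS -0.65 ± 0.386 (adjusted p = 0.394). The test called 11.7% of 12924 genes for IR over control, 6.46% for IS over control and 0.0464% for IR over IS, and 0 of the 2 tested genes in each.

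Mmp8 and G0s2 were below the filter in brain. Mmp8 was at 4.33, 4.31, 2.77, 2.34 and 0.704 CPM in controls, at 1.22, 0.746, 1.95, 1.92 and 0.98 CPM in IS and at 1.70, 1.42, 0.0969, 0.574 and 1.28 CPM in IR libraries. Of the controls, 4 lay above every IS and IR library and control 5 lay below most. Without the filter its log2 fold change was -1.49 ± 0.493 for IR over control (edgeR, adjusted p = 0.0812) and -1.08 for IS over control (adjusted p = 0.288). G0s2 was at 1.54 ± 0.949 CPM in controls, 0.645 ± 0.364 CPM in IS and 0.599 ± 0.419 CPM in IR libraries, with an adjusted p of 0.239 for IR over control. These 2 fits called 5.63% and 2.92% of 26342 genes.

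Many genes of the wider lists and most macrophage markers were called lower in IR than in control brain libraries. Not all lists moved down: of the ligands and growth factors 3 of 4 tested genes were above 0, with a median log2 fold change of 0.50. Of the transcription factors 2 were above 0 and 2 below. Of the tested genes, 5 of 11 receptors and adhesion molecules, 2 of 5 granule and secreted proteins, 6 of 9 cytosolic genes, 2 of 4 transcription factors and 1 of 4 ligands fell, and 1 rose, against 5.27% of all tested genes lower and 6.45% higher. Named after their values were seen, Itgam, a subunit of the myeloid integrin Mac-1, fell by 2.26 on the log2 scale (adjusted p = 0.0133) and Spi1, which encodes PU.1, fell by 1.43 (adjusted p = 0.0133). Of 6 tested macrophage markers 5 fell, among them Csf1r, at 19.4 ± 6.08 CPM in IR libraries and 58.8 ± 16.9 CPM in controls (edgeR adjusted p = 0.00391). The macrophage sum was 106 to 352 CPM in IR and 450 to 631 CPM in control libraries, and Ptprc was at 6.69 to 30.5 and 32.5 to 72.0 CPM. Endothelial markers rose in 4 of 4 genes, with sums of 326 to 721 against 81.7 to 121 CPM. The part of macrophages and endothelial cells in the list counts was not tested. The 9 genes went both ways for IR over control. Without the filter the log2 fold change was 0.92 for S100a8 and 0.18 for Csf3r, but -1.49 for Mmp8 and -1.35 for G0s2. Cxcr2 and Trem1, with 3 and 8 counts, were below 0 too, and none of these was called.

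In exosome culture, where 4T1 cells are alone, S100a9, Csf3r, Mmp8, Retnlg and Trem1 had 0 counts in all 9 libraries, which allows up to 0.0312 CPM over the table. Il1r2 had 14 counts, 6 of them in 1 untreated library, Cxcr2 had 2 and G0s2 had 1. Ly6g, Elane, Mpo, Ngp and Camp, of the wider lists, had 0 counts in all 9. None of the 9 genes passed the filter, so none was among the genes of which the test called 13.6% (IR exosomes over untreated), 19.3% (IS exosomes over untreated) and 6.27% (IR over IS exosomes).

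S100a8 had 0 counts in each untreated library, 5, 2 and 7 counts with IS exosomes and 3, 2 and 5 counts with IR exosomes. All 6 treated libraries were above all 3 untreated ones. Pooled over 3 libraries this was 0.415 CPM with IS exosomes (exact 95% Poisson interval 0.227 to 0.697) and 0.309 CPM with IR exosomes (0.148 to 0.568), against a limit of 0.0995 CPM (3 counts over the untreated group). The lower ends of both intervals lay above that limit. Intervals and limit cover counting error only. Without the filter edgeR's adjusted p was 0.0135 for IS exosomes and 0.0476 for IR exosomes over untreated cells, and 0.894 for IR over IS. These fits called 6.05% and 4.07% of 20179 genes as higher with IS and IR exosomes, and in 12.9% and 10.1% all treated libraries lay above all untreated ones. Ptprc, a leukocyte gene, had 0 counts in the untreated, 4 in the IS and 7 in the IR exosome libraries, and its part in the S100a8 counts was not tested.

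Of the 11 listed ligands and growth factors, RNA of 5 passed the filter in the cultured 4T1 cells. Csf3 rose from 27.4 ± 2.48 CPM in untreated cells to 143 ± 3.72 CPM with IS and 147 ± 2.12 CPM with IR exosomes (log2 2.39 and 2.43, edgeR adjusted p = 5.06e-14 and 4.69e-14). Cxcl1 and Cxcl5, ligands of Cxcr2, rose by 3.48 and 5.19 on the log2 scale with IS exosomes, and all 5 tested ligands and growth factors rose with either exosome, where 9.97% and 6.67% of all tested genes were higher. Mmp9 and Padi4, which stand in the lists as neutrophil genes and are named after their values were seen, were at 303 ± 11.0 and 215 ± 11.2 CPM in untreated 4T1 cells.

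In the miRNA experiment, where the test called 56.7% of 10751 genes, none of the 9 genes passed the filter. S100a9, Retnlg, Mmp8 and Trem1 had 0 counts in all 5 libraries, which allows up to 0.0221 CPM over the table. Il1r2 had 42 counts, with 3 to 11 in each library, S100a8 had 29 counts in 4 libraries, Cxcr2 had 5 and G0s2 had 1. Csf3r had 0 and 0 counts in the libraries titled scramble and 5, 14 and 4 counts in those titled miR-145a-3p. It passed edgeR's test without a filter (adjusted p = 0.00701), where 31.4% of 25492 genes passed. With titles and library names in conflict no direction can be given.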

How the data were processed

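RNA-seq of 38 libraries was analysed in 4 tables. Their values are expected counts that the authors deposited, estimated per gene with RSEM (brain and exosome culture) or salmon (tumours and miRNA), per the file headers and titles. The series text names the nf-core pipeline and DESeq2, and the submitters' processing notes name Trimmomatic, STAR, featureCounts, GRCm38/mm10 and GRCm39/mm39 without roles. Libraries were stranded mRNA libraries, per the labels' protocols. Brain and culture genes were named by ID from the tumour table (52139 of 55487) and a reference table (3257). Of the culture columns, 3 fit no sample's labels and were left out. IR columns of the brain and culture tables bear names that are also those of tumour libraries, so they were assigned to their group only, without a replicate number.

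Counts were rounded, genes at 3 CPM or more of the total count in at least 3 libraries kept, and each table fitted with edgeR 4.0.16 (TMM scaling, quasi-likelihood test, R 4.3.3) over all its groups, with Benjamini-Hochberg adjustment over all genes tested and calls at 0.05. Scripts were tested on simulated data. There the tumour comparison recovered 4% of 50 genes raised 1.5-fold and 54% of 50 genes raised 2-fold. In brain IR over control these shares were 62% and 82%. A 1.5-fold change would thus mostly go uncalled in the tumours. Alternatives were DESeq2 1.42.0, another scaling, no filter, a replicate block, a fit of 2 groups only and leaving out each library. The 9 genes, the lists and the tests were chosen with earlier results of these data known. Named genes were the 9, a fixed set of defining markers and ligands, up to 4 called genes per list in tumours (none was called) and the 10 genes most like the 9. Other genes (Clec4d, Fpr1, Fpr2, Il1b, Ltf, Fcgr4, Ccrl2, Mrc1, Itgam, Spi1, Mmp9, Padi4 and the marker Krt18) were named after their values were seen.

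Deviations of same-numbered tumours from their group means were correlated (r = 0.14, 0.76, 0.23 and 0.12). The highest r was that of control 2 with IR 2, the 2 libraries high in lymphocyte markers. No pairing was taken as established, so the main test was unpaired and the replicate number was a block in an alternative fit only. These correlations come from the data and the labels state no pairs, and by the replicate numbers IR 5 has no partner. Control 4 bears the number 5 in its library name, by which IR 5 has a partner and IR 4 has none. By replicate number 3 of 8 libraries matched their own number best. No library pair was within sampling noise (lowest chi-square per degree of freedom 2.26).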

Additional observations from a re-analysis of the deposited data

Results flagged for a closer look

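In groups of 4 to 10 libraries the highest and lowest library were compared with the spread of the others (Dixon's test at the 95% level), which chance passes in about 1 in 20 groups. Of 34 groups of the 9 genes 1 stood out: Mmp8 in IR tumours, at 0.378 CPM in IR 2 against 1.09 CPM in the next library, which is 7 counts against 19 or more.

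Of 34 groups of marker lists 7 stood out. Lymphocyte markers were at 461 CPM in control 2 (next 24.8) and 547 CPM in IR 2 (next 130), and the pan-leukocyte gene Ptprc at 229 CPM (next 75.1) and 287 CPM (next 86.5) in the same libraries. Keratinocyte markers were at 468 CPM in control 1 (next 17.2), skeletal muscle markers at 10573 CPM in IR 4 (next 1566), and endothelial markers were lowest in IR 1, at 179 CPM (next 285).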

How the results depend on the processing

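No tested gene of the 9 was called in tumours or brain under any alternative run. In tumours, DESeq2 called 124 genes, the replicate block 1 and a block by the number in the library names 4 (chosen after seeing the data), against 0, and leaving out 1 library gave 0 to 1. Without 1 library at a time, S100a8 ran from -0.82 to 0.53, S100a9 from -0.48 to 0.58, Cxcr2 from -0.15 to 0.44, Retnlg from -0.023 (without control 3) to 0.53 and G0s2 from -0.024 (without IR 5) to 0.59 (log2 fold changes). The positive values of S100a8 (0.53) and S100a9 (0.58 and 0.03) came without control 2 and, for 0.03, without IR 3. Without control 2 and IR 2 (chosen after seeing the data) they were 0.59 and 0.69, and with the block by library names 0.11 and 0.31. Cxcr2 was -0.15 without control 3, -0.04 without IR 1 and -0.11 without IR 2. With the replicate block Retnlg was -0.26 and G0s2 -0.18, and it changed no other sign and no call among the 9. Retnlg fell below the filter without control 4, IR 2 or IR 5 and without control 2 and IR 2 together.

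Brain IR over IS called 6 genes, 3 with total-count scaling, 334 without the filter, 604 with DESeq2, 0 with only these 2 groups and 0 to 1139 without 1 library (0 without IS 3, 1139 without IS 2). Without 1 library, brain IR over control called 836 (without 1 IR library) to 1803 genes (main 1514) and IS over control 465 (without control 2) to 872 (main 835). In culture the ranges were 1067 to 1402 (main 1477) for IR exosomes, 1498 to 1688 (main 2101) for IS exosomes and 295 (without IS 3) to 871 (main 683) between them. The miRNA table gave 4698 to 6888 (main 6093), and 3990 with the replicate block. Without the filter 1 of the 9 genes was called for IR exosomes, 1 for IS exosomes and 1 in the miRNA table.

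Same-numbered libraries outside the tumours showed little common deviation: r was over 0.1 in 1 of 5 control and IS pairs in brain, 0 of 3 in culture and 0 of 2 in the miRNA table. With the replicate block, IS over control called 534 genes in brain and 2013 in culture. No paired analysis was possible because the IR columns carry no sample's number for IR in brain and culture. In a tumour 1 count was 0.0466 to 0.0596 CPM, and the level of Mmp8 rests on 7 to 24 counts per tumour.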
